A study of Mus musculus with 6 samples.

Results

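Autophagy carries cytoplasm, proteins and organelles to the lysosome inside a double membrane, the autophagosome, and 37 genes that start it, choose its cargo or set its rate were followed here in the mouse cerebral cortex. They were taken by symbol from a table of 34745 genes, which held each of them once. By role, 5 encode the ULK kinase complex and its subunits, 6 the class III PI3-kinase complex, 5 proteins that supply membrane, 5 the ubiquitin-like conjugation system, 4 cargo receptors, 10 mTORC1 and its regulators and 2 the catalytic subunits of AMPK. Total RNA was sequenced from cortex at postnatal day 8. The 3 Pen-2 cKO samples had the genotype Pen-2 F/F with hGFAP-Cre, and the 3 control samples had floxed alleles alone (Pen-2 F/F), so that the floxed alleles are common to both groups while the transgene and the deletion cannot be told apart. *Psenen* encodes PEN-2, which γ-secretase, a protease that cuts proteins within membranes, needs for its activity. The title of the series concerns astrocytic PEN-2 and autophagic control of a water channel, and the comparison asks whether the genes of the machinery differed in level.

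In this pathway the ULK complex receives opposite inputs from mTORC1 and AMPK. mTORC1, active when amino acids and growth factors are plentiful, phosphorylates ULK1 and holds autophagy down, while AMPK, active when energy is low, phosphorylates ULK1 and mTORC1 components to release it. Activated ULK1 recruits the VPS34 lipid kinase, which marks the growing membrane with PI3P. WIPI proteins bind that lipid and bring in the ATG12–ATG5–ATG16L1 complex, which attaches LC3 and GABARAP proteins to the membrane, where cargo receptors hold on to them. Much of this control acts on the proteins, by phosphorylation, binding and turnover, which RNA levels do not measure. The hGFAP-Cre transgene expresses Cre under a human GFAP promoter and is known to act in radial glial progenitors, so that neurons and glia descended from them can carry the deletion, and cortex is a mixture of all these cells.

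No member passed the test for a change. Of the 37 genes, 0 rose and 0 fell at an adjusted p under 0.05 (limma on log2(FPKM + 0.1), where FPKM is fragments per kilobase of transcript scaled to library depth, with p-values adjusted over 14147 tested genes), against 5.53% of all tested genes, 3.67% higher and 1.87% lower in Pen-2 cKO cortex. For a list of 37 genes a count of 0 is near 5.53%, and the count alone is no result about them. At an unadjusted p under 0.05 there were 4 members, *Atg2a*, *Tsc2*, *Wipi1* and *Rraga*, or 10.8%, against 22.9% of all tested genes. The libraries of the groups did not overlap in 7 members, or 18.9%, against 29.7% of all tested genes: 3 were higher in Pen-2 cKO cortex (21.5% of all tested genes) and 4 lower (8.17%). The median log2 fold change was 0.01 over the members and 0.07 over all tested genes, and the median size of the change, sign ignored, was 0.05 against 0.15. Fold changes of the members ran from -0.25 for *Deptor* to 0.32 for *Atg2a* on the log2 scale. The smallest adjusted p of a member was 0.117, and it was between 0.0554 and 0.283 over the 16 other ways of processing the data, none of which called a member. In the authors' deposited table, 593 of 34745 genes have an up call and 112 a down call. None of the 37 members has either, which for a list this small is near that share and is no result about them. The q-values of the members run from 0.592 to 1.

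Under the main scaling, the intervals say how large a difference in the average over the cortex could have gone unseen. A larger difference confined to some of its cells was not measured. Intervals under other scalings are not given here, and the median log2 fold change of the members was -0.0577 with median-ratio and 0.0616 with equal-sum scaling. In 35 of 37 members (94.6%) the 95% interval of the log2 fold change lay within 1.5-fold in both directions, which held for 64.6% of all tested genes. The exceptions were *Becn1*, whose interval reached 0.60, and *Deptor*, whose interval reached -0.68. The members were also measured with little spread: the coefficient of variation within a group had a median of 4.24% in Pen-2 cKO and 5.81% in control libraries over the members, against 7.87% and 9.75% over all tested genes. Their median level was higher, at 8.05 FPKM against 4.82 FPKM. None of these comparisons, nor that of the median size of the change, was matched for level.

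**Figure D1:**
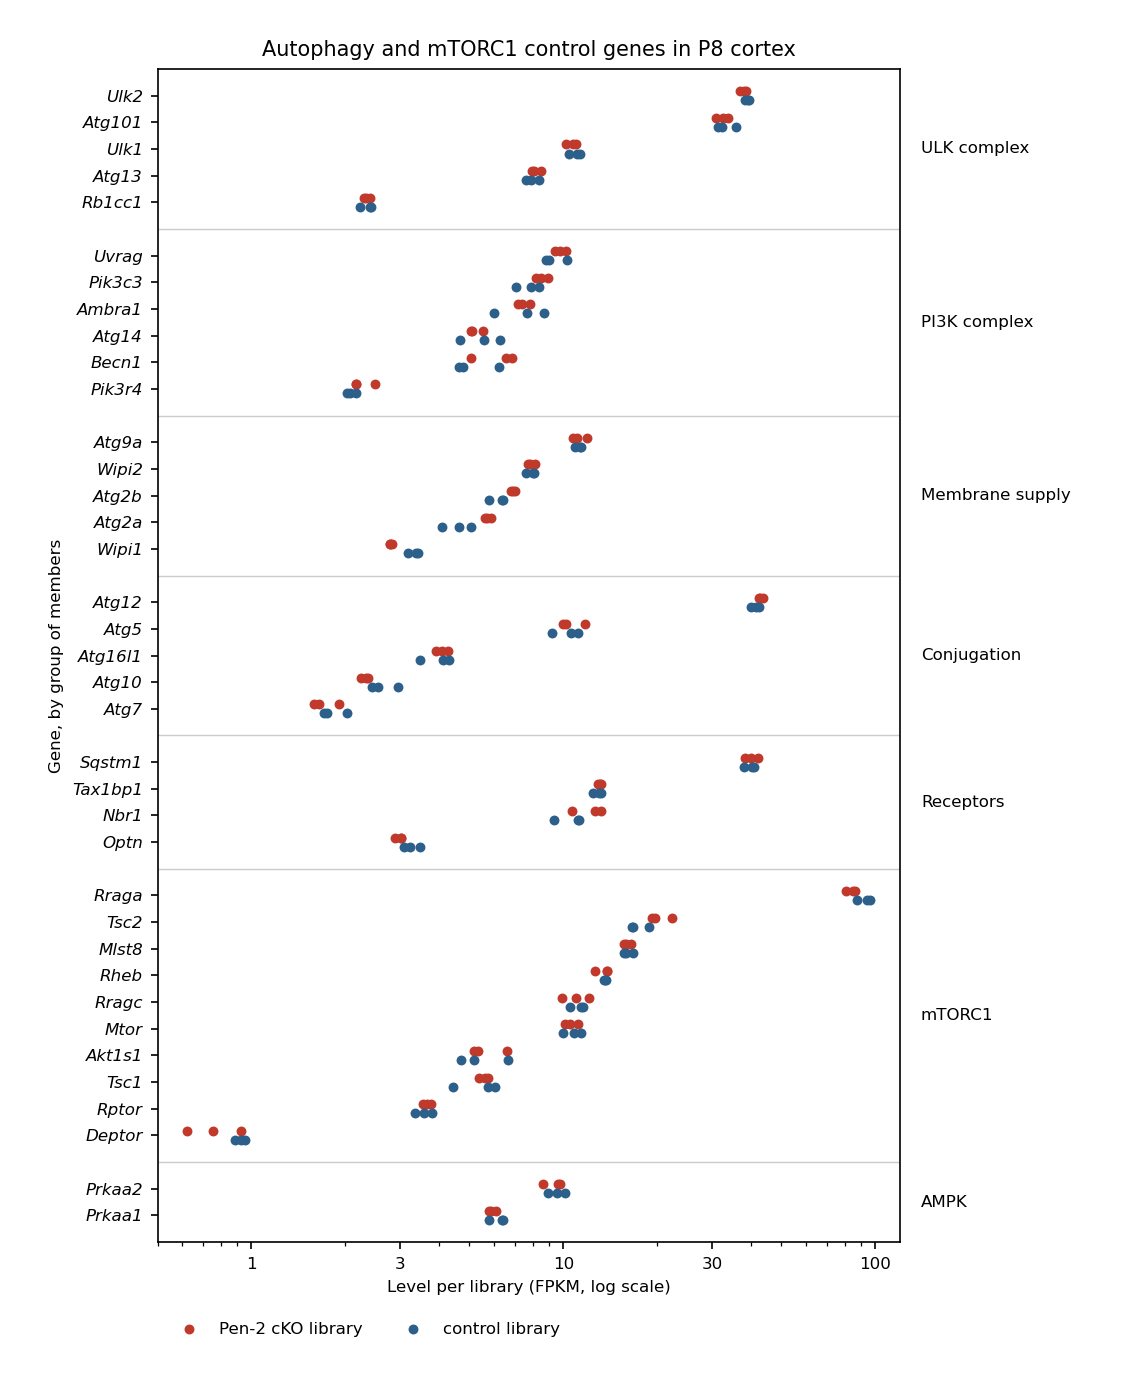
Level of each of the 37 genes in each library, in FPKM on a log axis, by role, with Pen-2 cKO libraries above control libraries for each gene. The rows of points lie close together in nearly every gene, and the levels span from 0.622 FPKM (*Deptor*, a Pen-2 cKO library) to 96.4 FPKM (*Rraga*, a control library).

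Facts of the whole data set bear on how these values are read. The smallest steps between values implied 25123100, 26092700 and 26809300 fragments in the Pen-2 cKO libraries and 21633200, 20251900 and 24872600 in the control libraries. *Psenen* was 3.56, 3.90 and 4.03 FPKM in Pen-2 cKO and 6.35, 6.86 and 7.32 FPKM in control cortex, and fell by 0.82 on the log2 scale (adjusted p = 0.00441). By the median size of the log2 fold change, sign ignored, several lists of cell type markers moved far more than the members did. It was 1.55 for astrocyte and 2.34 for myelinating oligodendrocyte markers, against 0.05 for the members. For neuronal and endothelial markers it was only 0.14 and 0.21. Summed over 10 astrocyte markers, of which 6 fell and 0 rose, the level was 130.4 to 204 FPKM in Pen-2 cKO and 390.0 to 474 FPKM in control libraries. Of 8 myelinating oligodendrocyte markers, 7 rose, with sums of 94.3 to 150.1 FPKM in Pen-2 cKO and 24.0 to 38.0 FPKM in control libraries. Of 6 precursor markers 4 rose, *Olig1*, *Olig2*, *Sox10* and *Gpr17*. Sums over the 6 were 248 to 312 FPKM in Pen-2 cKO and 99.0 to 126 FPKM in control libraries. *Pdgfra* and *Cspg4* were higher in each Pen-2 cKO library but did not pass. *Pdgfra* averaged 12.9 FPKM in Pen-2 cKO and 10.7 FPKM in control cortex (limma, adjusted p = 0.102). *Cspg4* averaged 4.79 FPKM in Pen-2 cKO and 3.30 FPKM in control cortex (limma, adjusted p = 0.0640). Of 6 markers of dividing cells 5 rose, with sums of 25.4 to 28.3 FPKM in Pen-2 cKO and 11.1 to 11.8 FPKM in control libraries, and of 6 meningeal fibroblast markers 3 rose, with 56.5 to 87.0 and 24.4 to 40.2 FPKM. Of 8 neuronal markers 1 rose and 1 fell, with sums of 1805 to 1951 FPKM in Pen-2 cKO and 2161 to 2219 FPKM in control libraries. Most of these sums was *Tubb3*, the marker that fell, which averaged 1141 FPKM in Pen-2 cKO and 1404 FPKM in control cortex. The libraries did not overlap in 4 of the 8 (50%), 3 lower and 1 higher in Pen-2 cKO, against 29.7% of all tested genes. Among vascular and immune lists, 2 of 6 mural, 1 of 6 endothelial and 1 of 8 microglial markers rose, and the microglial sums were 107 to 169 FPKM in Pen-2 cKO and 75.2 to 96.8 FPKM in control libraries. None of 4 blood markers passed. No marker was at 0 in all libraries. In bulk tissue, fewer cells of a type and less RNA per cell cannot be told apart, and the part of these shifts in the values of the members was not tested. Pen-2 cKO replicate 3 stood apart by its choroid plexus markers, with a sum of 885 FPKM against 184 and 327 FPKM in the other Pen-2 cKO libraries. In control libraries this sum was 34.8 to 181 FPKM. Most of it came from *Ttr*, at 877 FPKM in Pen-2 cKO replicate 3 and 178 FPKM in control replicate 3. Of the 5 markers listed, 3 were tested and 0 passed, and libraries overlapped in *Folr1*, *Kcnj13* and *Clic6*. Pen-2 cKO replicate 3 also had the highest astrocyte and microglial sums of its group. The astrocyte sum was 204 FPKM against 130.4 and 132.7 FPKM, and the microglial sum 169 FPKM against 107 and 120 FPKM.

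**Figure D2:**
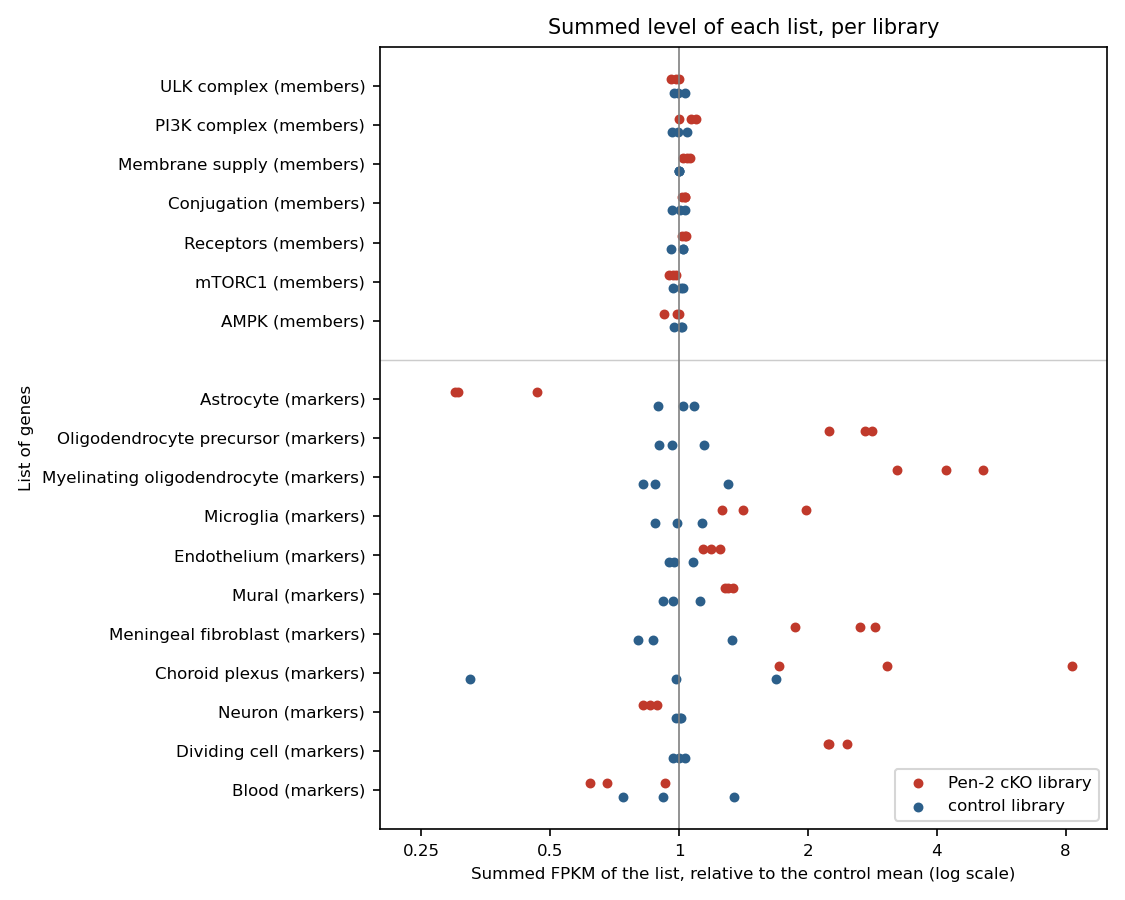
Summed FPKM of each list of genes in each library, relative to the mean of the control libraries, on a log axis, with Pen-2 cKO libraries above control libraries. Points of the 7 groups of members stay close to 1. Sums of astrocyte and neuronal markers lie lower in all 3 Pen-2 cKO libraries than in every control library. Those of all other marker lists but blood lie higher, for choroid plexus by a small gap, from 181 FPKM in control to 184 FPKM in Pen-2 cKO libraries. The choroid plexus sums are mostly *Ttr*.

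Promoter sequence was compared because the TFEB family binds the letters CACGTG, the core of the CLEAR element, in promoters of autophagy and lysosome genes, and because HIF binds the overlapping letters ACGTG. The windows are the 250 bases before each annotated start in RefSeq (GRCm38.p6, the assembly of mm10), searched on both strands. Of the 37 members 31 had windows, 33 in all. CACGTG was found in 4 of 33 windows (12.1%), against 6.02% of 32851 windows of all genes, and ACGTG, which every CACGTG contains, in 12 of 33 (36.4%) against 16.6%. The letters TGATGNAAN, a form of the ATF4 element, were found in 0 of 33 windows and in 3.44% of all. None of these shares was matched for base composition or for level. Both CACGTG and ACGTG hold the letters CG, and no enrichment is read from their shares. The 4 members with CACGTG were *Atg5*, *Atg7*, *Rheb* and *Rragc*, none of which passed the test. The *Atg7* window precedes a start site 28.0 kb inside the gene as the deposited locus gives it, not the first start of the gene, so its sequence is not shown. Start sites of 30 of the 33 windows lay within 1000 bases of the start of the deposited locus. Of 4 other genes of the pathway that did rise, described after the members, *Ddit4*, *Sesn2* and *Bnip3* had windows. *Bnip3* held CACGTG, *Ddit4* held ACGTG, and *Sesn2* held none of these letters in its window. A match is a string of letters and not a binding site. The windows of *Atg5*, *Rheb* and *Rragc* and of the genes that rose are shown 5′ to 3′ on the strand of the gene, with matches to CACGTG or ACGTG in capitals. They lie at chr10:44268089-44268338 (*Atg5*), chr5:24842362-24842611 (*Rheb*), chr4:123917183-123917432 (*Rragc*), chr7:138909507-138909756 (*Bnip3*), chr10:59951771-59952020 (*Ddit4*) and chr4:132510457-132510706 (*Sesn2*).
Atg5: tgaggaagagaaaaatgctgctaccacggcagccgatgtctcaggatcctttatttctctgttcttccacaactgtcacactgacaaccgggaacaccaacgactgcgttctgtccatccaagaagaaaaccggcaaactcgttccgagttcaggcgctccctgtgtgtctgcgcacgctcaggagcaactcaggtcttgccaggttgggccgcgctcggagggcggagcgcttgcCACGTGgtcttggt
Rheb: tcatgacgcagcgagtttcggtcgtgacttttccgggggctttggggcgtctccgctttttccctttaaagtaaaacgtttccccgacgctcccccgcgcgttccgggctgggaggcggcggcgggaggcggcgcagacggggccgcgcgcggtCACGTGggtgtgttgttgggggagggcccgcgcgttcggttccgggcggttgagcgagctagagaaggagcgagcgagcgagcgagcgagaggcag
Rragc: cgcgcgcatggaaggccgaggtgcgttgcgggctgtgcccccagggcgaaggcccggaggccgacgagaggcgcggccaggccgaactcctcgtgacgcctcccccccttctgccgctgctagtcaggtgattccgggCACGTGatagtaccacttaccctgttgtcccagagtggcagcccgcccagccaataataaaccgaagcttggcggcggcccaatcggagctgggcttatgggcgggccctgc
Bnip3: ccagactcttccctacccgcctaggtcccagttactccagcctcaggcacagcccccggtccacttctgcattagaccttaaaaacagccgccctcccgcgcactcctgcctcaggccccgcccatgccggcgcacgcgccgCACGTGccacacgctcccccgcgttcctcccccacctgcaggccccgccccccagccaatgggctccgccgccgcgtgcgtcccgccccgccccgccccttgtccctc
Ddit4: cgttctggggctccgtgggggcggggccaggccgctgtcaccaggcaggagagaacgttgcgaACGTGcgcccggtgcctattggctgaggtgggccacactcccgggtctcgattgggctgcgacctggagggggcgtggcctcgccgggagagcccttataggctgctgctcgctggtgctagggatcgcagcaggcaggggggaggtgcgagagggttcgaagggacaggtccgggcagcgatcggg
Sesn2: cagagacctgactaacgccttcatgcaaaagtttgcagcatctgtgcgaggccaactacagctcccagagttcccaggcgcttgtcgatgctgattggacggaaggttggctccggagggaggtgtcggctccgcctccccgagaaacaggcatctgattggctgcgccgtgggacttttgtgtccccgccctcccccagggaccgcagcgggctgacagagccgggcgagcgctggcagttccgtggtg

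In *Atg5* the match began at position -14, counted from the start site that the window precedes, and in *Rheb*, *Bnip3* and *Rragc* at -96, -108 and -112. The *Ddit4* match began at -187.

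The ULK complex, which receives the signals of mTORC1 and AMPK, was represented by 5 genes with summed levels of 93.2, 91.7 and 89.2 FPKM in the Pen-2 cKO libraries and 92.5, 96.2 and 90.8 FPKM in the control libraries, which overlap. Its kinases were led by *Ulk2*. *Ulk2*, a paralog of ULK1 with overlapping function, was 37.9, 38.6 and 37.0 FPKM in Pen-2 cKO and 38.2, 39.3 and 38.9 FPKM in control cortex. All 6 values lie within a narrow band and the groups overlap. The fold change on the log2 scale was -0.04 (SE 0.05, 95% interval -0.15 to 0.07, adjusted p = 0.702). *Ulk1*, the kinase that mTORC1 and AMPK phosphorylate, was 10.7, 10.2 and 10.9 FPKM in Pen-2 cKO and 11.3, 11.1 and 10.4 FPKM in control cortex, again overlapping, with a log2 fold change of -0.04 (SE 0.07, 95% interval -0.19 to 0.12, adjusted p = 0.788). The ratio of *Ulk2* to *Ulk1* within a library was 3.56 ± 0.202 in Pen-2 cKO and 3.56 ± 0.175 in control cortex (exact permutation test, two-sided, p = 1). *Atg101*, which stabilises ATG13, averaged 32.4 ± 1.37 FPKM in Pen-2 cKO and 33.2 ± 2.40 FPKM in control cortex, and *Atg13*, the adaptor that links the kinase to its scaffold, 8.16 ± 0.309 FPKM in Pen-2 cKO and 7.94 ± 0.404 FPKM in control cortex. *Rb1cc1*, the scaffold FIP200, was the lowest of the complex, at 2.35 ± 0.0494 FPKM in Pen-2 cKO and 2.35 ± 0.106 FPKM in control cortex, with a log2 fold change of -0.001 (95% interval -0.24 to 0.24).

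Genes of the PI3-kinase complex had summed levels of 37.4, 39.8 and 41.0 FPKM in the Pen-2 cKO libraries and 39.0, 35.9 and 37.2 FPKM in the control libraries, with overlapping libraries in all 6. *Pik3c3*, the lipid kinase VPS34, was 8.15, 8.45 and 8.91 FPKM in Pen-2 cKO and 8.34, 7.05 and 7.86 FPKM in control cortex. Control replicate 2 was the lowest of the 6 values. In log2 terms the difference was 0.13 (SE 0.09, 95% interval -0.07 to 0.34, adjusted p = 0.405). *Becn1*, the subunit that regulatory proteins bind, was 5.05, 6.83 and 6.56 FPKM in Pen-2 cKO and 4.77, 4.61 and 6.21 FPKM in control cortex. Each group held values near 5 FPKM and values above 6 FPKM, so that the groups overlap and the spread is wide for this set. The log2 fold change of *Becn1* was 0.24 (SE 0.16, 95% interval -0.13 to 0.60, adjusted p = 0.419). In the annotation 43.9% of its exonic bases also belong to exons of *Cntd1* on the opposite strand, a gene that averaged 0.146 FPKM in Pen-2 cKO and 0.0699 FPKM in control cortex. Whether counting used strand is not given in the sources used here. *Pik3r4*, the VPS15 subunit, averaged 2.27 ± 0.180 FPKM in Pen-2 cKO and 2.09 ± 0.0727 FPKM in control cortex. *Atg14*, which directs the complex to autophagosome formation, averaged 5.23 ± 0.252 FPKM in Pen-2 cKO and 5.50 ± 0.808 FPKM in control cortex, and *Uvrag*, which takes its place in the endosomal form, 9.77 ± 0.386 FPKM in Pen-2 cKO and 9.36 ± 0.786 FPKM in control cortex. *Ambra1*, a BECN1-binding adaptor, averaged 7.46 ± 0.327 FPKM in Pen-2 cKO and 7.43 ± 1.35 FPKM in control cortex, and its control libraries ranged from 5.99 to 8.67 FPKM.

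Among the 5 proteins that supply and shape the membrane, the libraries of *Atg2a*, *Atg2b* and *Wipi1* did not overlap, against 29.7% of all tested genes without overlap, a count made after the values were seen. *Atg2a* (ENSMUSG00000024773, mm10 chromosome 19, 6241668 to 6262335), which encodes a bridge that moves lipid into the growing membrane, was 5.86, 5.67 and 5.63 FPKM in Pen-2 cKO and 4.63, 4.07 and 5.06 FPKM in control cortex. Each Pen-2 cKO library was above each control library. The log2 fold change was 0.32 (SE 0.10, 95% interval 0.08 to 0.55, adjusted p = 0.117). Its paralog *Atg2b* was 6.89, 7.02 and 6.81 FPKM in Pen-2 cKO and 6.38, 6.41 and 5.78 FPKM in control cortex, which do not overlap either, with a log2 fold change of 0.16 (SE 0.08, 95% interval -0.02 to 0.34, adjusted p = 0.278). Pen-2 cKO libraries differed from each other by less than control libraries in both paralogs. The ratio of *Atg2b* to *Atg2a* was 1.21 ± 0.0310 in Pen-2 cKO and 1.36 ± 0.217 in control cortex (exact permutation test, two-sided, p = 0.4), and these ratios overlap. *Wipi1* (ENSMUSG00000041895, chromosome 11, 109573331 to 109611967), a PI3P-binding protein, was 2.83, 2.78 and 2.77 FPKM in Pen-2 cKO and 3.17, 3.37 and 3.43 FPKM in control cortex. Each Pen-2 cKO library was below each control library. On the log2 scale the change was -0.24 (SE 0.09, 95% interval -0.46 to -0.03, adjusted p = 0.178). *Wipi2*, the family member that recruits ATG16L1, was nearly equal between the groups, at 7.89 ± 0.216 FPKM in Pen-2 cKO and 7.88 ± 0.255 FPKM in control cortex. Within a library, the ratio of *Wipi2* to *Wipi1* was 2.82 ± 0.102 in Pen-2 cKO and 2.37 ± 0.161 in control cortex, without overlap. The exact permutation test (two-sided) gave p = 0.1 for it, the smallest that 3 against 3 libraries allow, and 0.6 after adjustment over 6 ratios. *Atg9a*, the lipid-scrambling protein of the seed vesicles, averaged 11.3 ± 0.596 FPKM in Pen-2 cKO and 11.2 ± 0.276 FPKM in control cortex, with 31.8% of its exonic bases shared with *Gm29253* on the same strand. The summed level of these 5 genes was 33.8 to 35.2 FPKM in Pen-2 cKO and 33.1 to 33.2 FPKM in control libraries, which do not overlap but differ by little. Neither *Atg2a*, *Atg2b* nor *Wipi1* was called by limma in any of the 16 other settings.

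**Figure D3:**
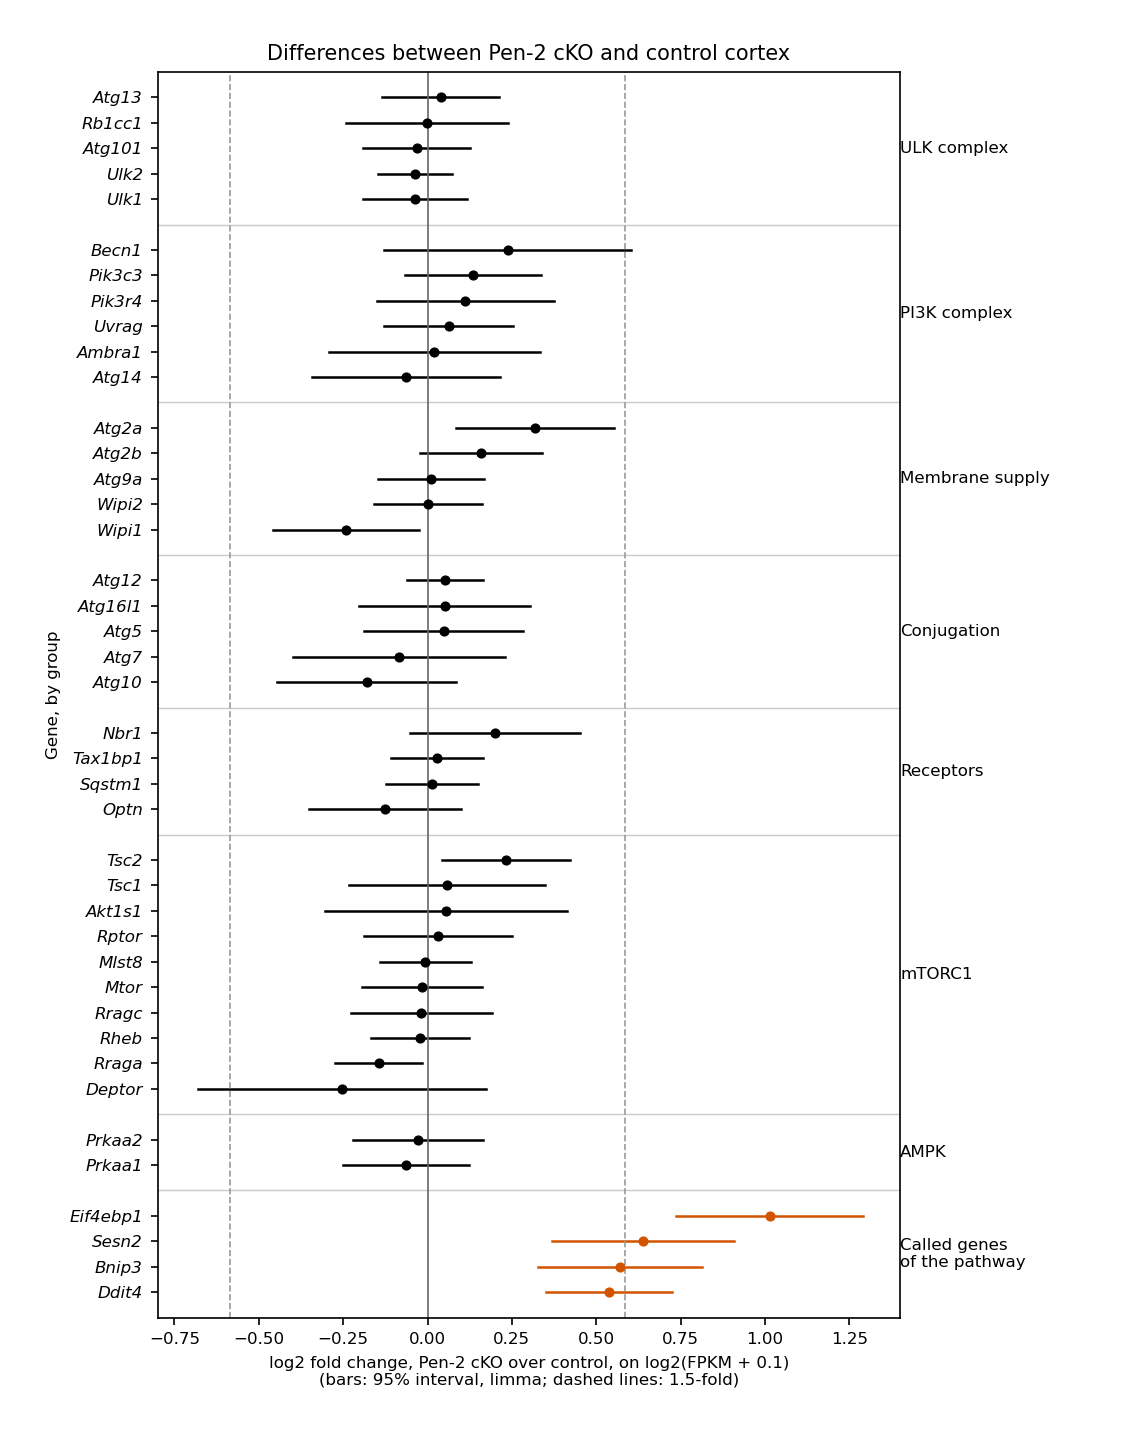
Log2 fold change of each of the 37 genes, Pen-2 cKO over control on log2(FPKM + 0.1), with 95% intervals from limma, above the 4 other pathway genes that passed the test. Intervals of 35 members lie between the dashed lines at 1.5-fold, and those of *Eif4ebp1*, *Sesn2*, *Bnip3* and *Ddit4* lie wholly above 0.

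Among the conjugation genes, *Atg12*, the ubiquitin-like protein that is joined to ATG5, had by far the highest level. It was 42.6, 43.7 and 42.4 FPKM in Pen-2 cKO and 40.1, 42.5 and 41.5 FPKM in control cortex, and the groups overlap, with a log2 fold change of 0.05 (SE 0.05, 95% interval -0.06 to 0.16, adjusted p = 0.572). *Atg10*, the enzyme that joins ATG12 to ATG5, was 2.25, 2.33 and 2.36 FPKM in Pen-2 cKO and 2.44, 2.55 and 2.95 FPKM in control cortex. Pen-2 cKO libraries lay closely together and below each control library. The log2 fold change of *Atg10* was -0.18 (SE 0.11, 95% interval -0.45 to 0.08, adjusted p = 0.397). *Atg5*, the acceptor of ATG12, averaged 10.7 ± 0.969 FPKM in Pen-2 cKO and 10.3 ± 1.02 FPKM in control cortex. *Atg7*, the activating enzyme for ATG12 and LC3, averaged 1.72 ± 0.169 FPKM in Pen-2 cKO and 1.83 ± 0.174 FPKM in control cortex, and *Atg16l1*, which places the complex on the membrane, 4.09 ± 0.177 FPKM in Pen-2 cKO and 3.96 ± 0.436 FPKM in control cortex. The acceptor and its ubiquitin-like partner thus stood at different levels per length in every library, while the enzymes *Atg7* and *Atg10* were under 3 FPKM in each.

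Cargo receptors hold ubiquitinated cargo and LC3 together. *Sqstm1*, which encodes p62 and is itself degraded by autophagy, was 39.9, 38.1 and 42.1 FPKM in Pen-2 cKO and 40.7, 40.3 and 38.0 FPKM in control cortex. Groups overlap, and the log2 fold change was 0.01 (SE 0.06, 95% interval -0.12 to 0.15, adjusted p = 0.918). In the annotation 17.3% of its exonic bases are shared with *Mrnip* on the other strand, at 7.35 FPKM in Pen-2 cKO and 8.20 FPKM in control cortex. *Nbr1*, a receptor that works with p62, was 12.6, 13.2 and 10.7 FPKM in Pen-2 cKO and 11.2, 11.2 and 9.35 FPKM in control cortex. Pen-2 cKO replicates 1 and 2 were above every control library and replicate 3 was within the control range. The fold change on the log2 scale was 0.20 (SE 0.11, 95% interval -0.05 to 0.45, adjusted p = 0.320). *Optn*, the receptor optineurin, which also serves removal of damaged mitochondria, was 2.88, 3.02 and 3.02 FPKM in Pen-2 cKO and 3.46, 3.22 and 3.09 FPKM in control cortex. There was no overlap, with all Pen-2 cKO values lower. The log2 fold change of *Optn* was -0.13 (SE 0.10, 95% interval -0.35 to 0.10, adjusted p = 0.489). *Tax1bp1* averaged 13.1 ± 0.161 FPKM in Pen-2 cKO and 12.8 ± 0.395 FPKM in control cortex, with a log2 fold change of 0.03 (95% interval -0.11 to 0.16).

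The mTORC1 group held the extremes of level, from *Rraga* to *Deptor*. *Mtor*, the kinase, averaged 10.6 ± 0.530 FPKM in Pen-2 cKO and 10.7 ± 0.684 FPKM in control cortex, and *Rptor*, which binds its substrates, 3.65 ± 0.104 FPKM in Pen-2 cKO and 3.57 ± 0.227 FPKM in control cortex. *Mlst8*, a subunit that mTORC1 and mTORC2 share, averaged 16.0 ± 0.394 FPKM in Pen-2 cKO and 16.1 ± 0.549 FPKM in control cortex, and shares 22.5% of its exonic bases with *Bricd5*. Among the inhibitors within the complex, *Akt1s1* (PRAS40) averaged 5.70 ± 0.797 FPKM in Pen-2 cKO and 5.51 ± 1.02 FPKM in control cortex, and *Deptor* was 0.756, 0.622 and 0.927 FPKM in Pen-2 cKO and 0.887, 0.929 and 0.956 FPKM in control cortex. Control values of *Deptor* were close together and Pen-2 cKO replicate 3 was within their range, so the groups overlap. Its log2 fold change was -0.25 (SE 0.18, 95% interval -0.68 to 0.17, adjusted p = 0.465).

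The TSC complex turns off RHEB, the small GTPase that activates mTORC1. *Tsc2* (ENSMUSG00000002496, mm10 chromosome 17, 24595937 to 24632629), its GTPase-activating subunit, was 19.3, 19.7 and 22.3 FPKM in Pen-2 cKO and 16.6, 16.7 and 18.8 FPKM in control cortex. All Pen-2 cKO libraries were above all control libraries, the gap being small beside the spread within each group. The fitted log2 difference was 0.23 (SE 0.08, 95% interval 0.04 to 0.42, adjusted p = 0.145). With each library scaled to the same sum its adjusted p was 0.0554, the nearest that any member came to the threshold in any setting. Exons of *Tsc2* overlap those of *Pkd1* on the opposite strand, over 7.20% of the exonic bases of *Tsc2*, and *Pkd1* averaged 12.3 FPKM in each group. *Tsc1*, the stabilising partner, averaged 5.57 ± 0.172 FPKM in Pen-2 cKO and 5.39 ± 0.845 FPKM in control cortex, with the lowest value, 4.43 FPKM, in control replicate 3. The ratio of *Tsc2* to *Tsc1* was 3.67 ± 0.407 in Pen-2 cKO and 3.30 ± 0.816 in control cortex (exact permutation test, two-sided, p = 0.5). *Rheb* averaged 13.4 ± 0.658 FPKM in Pen-2 cKO and 13.6 ± 0.124 FPKM in control cortex.

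The Rag GTPases bring mTORC1 to the lysosome when amino acids are present. *Rraga* (ENSMUSG00000070934, chromosome 4, 86575668 to 86577285) had the highest level of the 37 genes and was 85.8, 80.6 and 84.8 FPKM in Pen-2 cKO and 87.5, 96.4 and 94.0 FPKM in control cortex. Every Pen-2 cKO library was below every control library. On the log2 scale the change was -0.14 (SE 0.05, 95% interval -0.27 to -0.02, adjusted p = 0.176). *Rragc*, its partner in the heterodimer, averaged 11.0 ± 1.10 FPKM in Pen-2 cKO and 11.1 ± 0.570 FPKM in control cortex, and the ratio of *Rraga* to *Rragc* per length was 7.65 ± 0.877 in Pen-2 cKO and 8.33 ± 0.632 in control cortex (exact permutation test, two-sided, p = 0.3). Of the AMPK catalytic subunits, *Prkaa1* was 6.09, 5.76 and 5.86 FPKM in Pen-2 cKO and 6.36, 6.40 and 5.79 FPKM in control cortex. Groups overlap, with a log2 fold change of -0.06 (SE 0.08, 95% interval -0.25 to 0.12, adjusted p = 0.687). *Prkaa2*, its paralog, was 9.64, 9.76 and 8.62 FPKM in Pen-2 cKO and 9.56, 8.91 and 10.1 FPKM in control cortex. Its groups overlap as well, with a log2 fold change of -0.03 (SE 0.08, 95% interval -0.22 to 0.16, adjusted p = 0.877). The ratio of *Prkaa2* to *Prkaa1* was 1.58 ± 0.111 in Pen-2 cKO and 1.55 ± 0.181 in control cortex (exact permutation test, two-sided, p = 0.8).

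**Figure D4:**
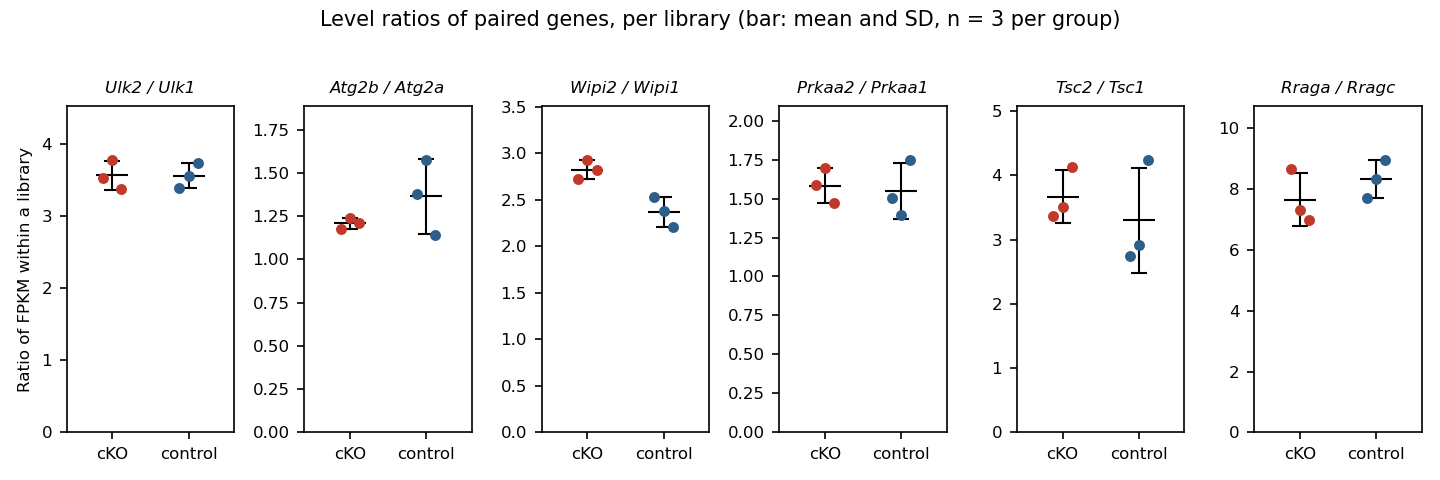
Ratio of the FPKM of 6 pairs of related genes within each library, with the mean and SD of the 3 Pen-2 cKO and the 3 control libraries. Only the ratio of *Wipi2* to *Wipi1* separates the groups, at 2.73 to 2.93 in Pen-2 cKO and 2.21 to 2.53 in control libraries.

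The order of the levels was nearly the same in both groups. From the top, *Rraga*, *Atg12*, *Sqstm1*, *Ulk2* and *Atg101* were at 30 FPKM or more in each group, and *Rb1cc1*, *Pik3r4*, *Atg7*, *Deptor* and *Atg10* were under 3 FPKM in each group. *Wipi1* and *Optn* were also under 3 FPKM on average in Pen-2 cKO but not in control cortex. The highest mean was 109 times the lowest in Pen-2 cKO and 100.3 times in control cortex. Of the 37 genes, 16 had the same rank in both groups and no gene moved by more than 4 ranks (Spearman's rho 0.99 between the group means over 37 genes, a description, since all genes come from the same libraries). *Atg12*, *Sqstm1* and *Ulk2* are neighbours in this order with means of 42.9, 40.1 and 37.8 FPKM in Pen-2 cKO and 41.4, 39.7 and 38.8 FPKM in control cortex, and the libraries of *Sqstm1* overlap those of the other two in control cortex.

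Beyond these members, 64 further genes of autophagy, amino acid sensing, mTORC1 output and AMPK were listed, and 63 had values high enough to test. Of these, 4 rose and 0 fell, or 6.35% higher and 0% lower against 3.67% and 1.87% of all tested genes. The list was chosen with earlier results of these data known, so its share is a description and not a test. The genes that rose were *Eif4ebp1*, *Ddit4*, *Sesn2* and *Bnip3*. The first is a target that mTORC1 phosphorylates, the next pair encode proteins that lower mTORC1 activity, and the last is a receptor for removal of mitochondria. *Eif4ebp1* (ENSMUSG00000031490, chromosome 8, 27260327 to 27275656), the translation repressor 4E-BP1, was 7.54, 7.58 and 6.58 FPKM in Pen-2 cKO and 3.72, 3.88 and 3.03 FPKM in control cortex. The Pen-2 cKO values were all well above the control values. Its log2 fold change was 1.01 (SE 0.12, 95% interval 0.74 to 1.29, adjusted p = 0.00479). *Ddit4* (ENSMUSG00000020108, chromosome 10, 59949675 to 59951770), which encodes REDD1, a stress-induced protein that acts through the TSC complex, was 60.1, 61.6 and 52.3 FPKM in Pen-2 cKO and 38.3, 43.0 and 38.3 FPKM in control cortex. There was no overlap, and the log2 fold change was 0.54 (SE 0.08, 95% interval 0.35 to 0.73, adjusted p = 0.0126).

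*Sesn2* (ENSMUSG00000028893, chromosome 4, 132492032 to 132510501), a leucine sensor that restrains mTORC1 through GATOR2, was 5.60, 6.34 and 7.40 FPKM in Pen-2 cKO and 4.11, 4.25 and 3.89 FPKM in control cortex. Pen-2 cKO replicate 3 was the highest, and the groups do not overlap. In log2 terms the difference was 0.64 (SE 0.12, 95% interval 0.37 to 0.91, adjusted p = 0.0247). *Bnip3* (ENSMUSG00000078566, chromosome 7, 138890836 to 138909519) was 26.8, 27.8 and 21.8 FPKM in Pen-2 cKO and 16.7, 16.0 and 18.4 FPKM in control cortex. Pen-2 cKO replicate 3 was nearest to the control values. An antisense gene, *Gm45507*, shares 22.3% of its exonic bases. The log2 fold change of *Bnip3* was 0.57 (SE 0.10, 95% interval 0.33 to 0.81, adjusted p = 0.0249). These genes kept positive fold changes in every setting tried. *Eif4ebp1* passed in all 16 and *Ddit4* in 14, its adjusted p being 0.0520 without Pen-2 cKO replicate 1 and 0.0566 without control replicate 1. *Sesn2* passed in 11 and *Bnip3* in 10. Without Pen-2 cKO replicate 2 the adjusted p was 0.0890 for *Sesn2* and also 0.0890 for *Bnip3*, without control replicate 1 it was 0.0765 and 0.0844, and without control replicate 2 it was 0.0799 and 0.0996 in the same order. Without control replicate 3 it was 0.0521 for *Sesn2*, and without Pen-2 cKO replicate 1 it was 0.0901 for *Bnip3*. Without Pen-2 cKO replicate 3 all 4 passed. Many cell types express these genes, and bulk cortex does not show which cells their fragments came from. The astrocyte, oligodendrocyte and other marker sums given above moved with the same groups, and their part in these 4 increases was not tested.

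**Figure D5:**
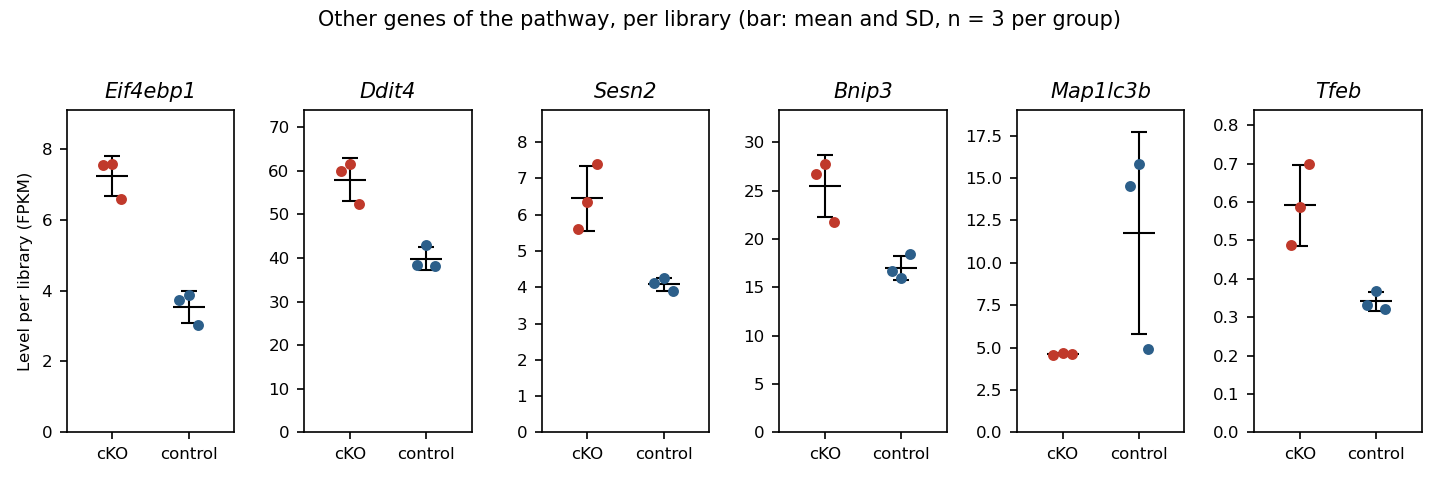
Level in FPKM of 6 other genes of the pathway in each library, with the mean and SD of the 3 Pen-2 cKO and the 3 control libraries. *Eif4ebp1*, *Ddit4*, *Sesn2* and *Bnip3* are higher in all Pen-2 cKO libraries, *Map1lc3b* is high in 2 of 3 control libraries, and *Tfeb*, which was too low to test, is under 1 FPKM throughout.

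In 4 classes of these genes no gene passed, which for classes this small is near the 5.53% called among all tested genes and is no result about them. At an unadjusted p under 0.05 they held 2 of 11 genes of the LC3 and GABARAP family and its conjugation enzymes, 0 of 8 genes of the phagophore and its lipid, 2 of 6 fusion genes and 1 of 8 AMPK partners, against 22.9% of all tested genes. *Gabarapl1* averaged 118 ± 1.05 FPKM in Pen-2 cKO and 109.5 ± 11.4 FPKM in control cortex, and *Map1lc3a*, which encodes LC3A, 88.7 ± 5.58 FPKM in Pen-2 cKO and 91.3 ± 2.06 FPKM in control cortex. *Map1lc3b*, which encodes the widely used autophagosome marker LC3B and was picked here after its values were seen, was 4.59, 4.68 and 4.60 FPKM in Pen-2 cKO and 14.5, 15.8 and 4.92 FPKM in control cortex. Control replicate 3 was near the Pen-2 cKO values while the other control libraries were about 3 times as high. The fitted log2 difference was -1.16 (SE 0.43, 95% interval -2.19 to -0.13, adjusted p = 0.177), and 1 of the 16 other settings called it. Without control replicate 3, the control library nearest to the Pen-2 cKO values, it was -1.69 (adjusted p = 0.00202), against -0.92 (adjusted p = 0.317) without control replicate 1 and -0.86 (adjusted p = 0.375) without control replicate 2. Of the phagophore genes, *Wdr45b*, a relative of the WIPI proteins, averaged 13.1 ± 1.27 FPKM in Pen-2 cKO and 13.0 ± 0.691 FPKM in control cortex, and *Vmp1*, a lipid scramblase of the endoplasmic reticulum, 12.1 ± 0.316 FPKM in Pen-2 cKO and 13.7 ± 1.28 FPKM in control cortex. Of the fusion genes, *Snap29*, a SNARE of autophagosome fusion, averaged 18.5 ± 0.365 FPKM in Pen-2 cKO and 16.0 ± 1.26 FPKM in control cortex, and *Tecpr1* 5.79 ± 0.115 FPKM in Pen-2 cKO and 6.03 ± 0.145 FPKM in control cortex, and the smallest adjusted p of the class was 0.0738. Of the AMPK partners, *Cab39* averaged 25.8 ± 0.222 FPKM in Pen-2 cKO and 27.9 ± 2.11 FPKM in control cortex and *Prkag1*, a regulatory subunit, 27.6 ± 1.41 FPKM in Pen-2 cKO and 22.8 ± 3.61 FPKM in control cortex. *Prkag1* was called in 1 of the 16 other settings, without control replicate 3, at 26.8 FPKM the only control library within the Pen-2 cKO range. Its log2 fold change was then 0.41 (adjusted p = 0.0294), against 0.20 (adjusted p = 0.356) without control replicate 1 and 0.25 (adjusted p = 0.394) without control replicate 2. *Tfeb*, the transcription factor that mTORC1 keeps out of the nucleus and that drives lysosomal and autophagy genes, was below the limit for testing, at 0.488, 0.586 and 0.700 FPKM in Pen-2 cKO and 0.331, 0.370 and 0.323 FPKM in control cortex. These values do not overlap. When genes at all levels were tested its log2 fold change was 0.64 (SE 0.20, adjusted p = 0.168).

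The animal autophagy pathway of KEGG, as annotated in the deposited tables, gave a wider count that was added after the data were seen. It holds 128 genes, 33 of them members, and 122 were tested. Of these 4 rose and 2 fell, or 4.92% against 5.53% of all tested genes. *Bnip3* and *Ddit4* were among them. The others, named after their values were seen, were *Prkcq* and *Pik3r3*, which rose by 0.96 and 0.47 on the log2 scale, and *Mras* and *Mapk8*, which fell by 0.34 and 0.27. With 1 library left out the count called, either way, was 1 without Pen-2 cKO replicate 1 or without control replicate 1 or 2. It was 2 without Pen-2 cKO replicate 2, and 5 without replicate 3 of either group. The calls among all 14147 tested genes changed too, from 783 to 321, 311 and 220 in the first 3 of these settings. They were 312 without Pen-2 cKO replicate 2, and 639 and 842 without replicate 3 of Pen-2 cKO and of control. The change in the count is thus no result about this pathway.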

How the data were processed

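Cortex RNA of 3 Pen-2 cKO and 3 control samples was measured by RNA-seq. The authors deposited FPKM values per gene, with mm10 given in the submitters' processing notes, in 1 table per sample and in a table of the whole series. The authors' deposited table of the whole series also holds q-values and up and down calls, whose test, like the aligner and the use of strand in counting, is not given in the sources used here. No read counts were used here: the table of the whole series holds FPKM, although its name speaks of counts. FPKM already divides by library total, so that large shifts in a few abundant genes move all others.

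Values were taken as log2(FPKM + 0.1), 14147 of 34745 genes were kept for reaching 0.5 FPKM in 3 or more libraries, and limma 3.58.1 in R 4.3.3 fitted the 6 libraries with a variance trend and robust variances, giving Pen-2 cKO minus control. P-values were adjusted by Benjamini-Hochberg across the 14147 genes, with 0.05 as the limit for a call. Fold changes on this scale understate those of low genes. Ratios used exact permutation tests. Depth was estimated from genes with 1 transcript: the most common value of FPKM times exonic length was assumed to stand for 1 fragment. Errors are SD over n = 3 libraries, and the labels do not say that each library is a separate animal, so p-values measure only the spread between these samples.

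The members and lists were chosen with earlier results of these data known. Members with full statistics are the 2 with the smallest p in each role, with those whose libraries do not overlap and a few others added after their values were seen. Of the other pathway genes, called ones are given in full and the 2 with the highest level in each class with no call. Alternatives changed scaling, pseudocount, filter, variance model, block or library. *Rubcn* was matched by gene ID.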

Additional observations from a re-analysis of the deposited data

How the results depend on the processing

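None of 16 other settings called a member, and 1 to 4 members had an unadjusted p under 0.05 in each. The count of all genes called was 783, against 499 when low genes were kept, 456 with a replicate block and 220 to 842 with 1 library left out (220 without control replicate 2, 311 without control replicate 1, 312 without Pen-2 cKO replicate 2 and 321 without Pen-2 cKO replicate 1). The share of calls that were higher was 66.3%, against 47.8% with median-ratio, 50.4% with upper-quartile and 78.8% with equal-sum scaling, and 51.6% without Pen-2 cKO replicate 3. The median log2 fold change of the members, 0.01, was -0.0577, -0.0473 and 0.0616 under those 3 scalings and -0.0158 to 0.0209 with 1 library left out, so that its sign depends on the scaling. Up to 13 members changed sign between settings. Other pathway genes called numbered 4, and 2 with the replicate block and 1 to 5 with 1 library left out; *Bnip3* had an adjusted p of 0.0746 and *Sesn2* of 0.0615 under the block, and *Bnip3* 0.0562 without the variance trend. The cause was not tested. Libraries that share a replicate number correlated in their deviations by 0.061, 0.012 and 0.1, and the labels state no pairing, so the numbers are not taken to pair samples. There were 3 libraries a group, with depths of 20251900 to 26809300 fragments, and the effect of depth on the calls was not tested.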
